A study of Mus musculus with 7 samples.

Results

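The nuclear genes of the mitochondrial respiratory chain and ATP synthase were examined in splenic type 1 conventional dendritic cells (cDC1), a dendritic cell type known for cross-presentation, by which antigen taken up from outside is shown to CD8 T cells. Members were all genes on the array whose symbol begins with Nduf, Sdh, Uqc, Cox followed by a digit, or Atp5, together with Cyc1 and Cycs. The rule found 110 genes of 19505 named genes, each measured by 1 probe set. They comprised 44 genes of complex I, 8 of complex II, 12 of complex III, 28 of complex IV, 17 of ATP synthase, and Cycs. The cells had been sorted from spleens of C57BL/6 animals with a B16-OVA tumor, which grows from a melanoma line engineered to make ovalbumin. The KO group held 4 arrays from mice with a floxed Opa1 gene and a Cre recombinase under the CD11c promoter, and the WT group 3 arrays from wild-type mice. The CD11c promoter is also active in other dendritic cells and in some macrophages, so deletion need not be limited to cDC1. Both groups shared the tumor and the strain, and no age was used here. Whether each array stands for its own mouse is not stated, so the p-values reflect the spread between arrays, which may be technical.

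The respiratory chain passes electrons from NADH through complex I, or from succinate through complex II, by way of ubiquinone, complex III and cytochrome c to complex IV, which reduces oxygen. Complexes I, III and IV pump protons across the inner membrane, and ATP synthase uses the gradient to make ATP. OPA1, the GTPase that fuses the inner membrane, also holds the cristae in shape, and the complexes sit in the cristae. The comparison asked whether the RNA of their subunits and assembly factors differed between KO and WT cDC1.

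Opa1, the targeted gene, had log2 values of 7.70, 7.10, 6.85 and 8.24 on KO 1 to 4, against 8.14, 8.80 and 9.15 on WT 1 to 3. The groups overlapped, since KO 4 lay above WT 1. The difference, KO minus WT, was -1.22 (SE 0.36), which missed the threshold after adjustment (limma, adjusted p = 0.223); an exact two-sided permutation test gave p = 0.114, where 0.0571 is the smallest p that 35 splits allow. Where the probes lie relative to the deleted part was not analysed here, so group names follow the labels. Of the 7 arrays, WT 1 and WT 2 stood apart: across genes they correlated at 0.924 to 0.954 with the other 5 arrays, which correlated at 0.988 to 0.993 among themselves. The mean of 11 cDC1 markers was 11.75 to 11.86 on the KO arrays, against 10.86, 9.07 and 11.71 on WT 1 to 3. On WT 2, the defining markers Xcr1 and Clec9a read only 7.97 and 7.29, so the labelled cell type was weakly borne out on that array. On WT 1, every cDC1 marker but Itgae also lay below all KO arrays. Cd8a read 7.89 on WT 1, against 11.95 to 12.12 on the KO arrays. Clec9a read 10.46 on WT 1, against 12.03 to 12.11, and Xcr1 read 12.12, against 12.70 to 12.79. The mean levels of cDC2 markers and of monocyte and macrophage markers were highest on WT 2, while that of neutrophil markers was not. The mean of 2 neutrophil markers was 7.31 to 8.63 on the KO arrays, against 6.66, 6.90 and 8.39 on WT 1 to 3. The mean of 4 cDC2 markers was 9.01 to 9.23 on the KO arrays, against 9.06, 10.86 and 9.27 on WT 1 to 3, and that of 6 monocyte and macrophage markers was 8.88 to 9.48 on the KO arrays, against 8.86, 10.52 and 9.71 on WT 1 to 3. Of the 4 cDC2 markers, only Sirpa was lower in KO without overlap (difference -1.04, limma adjusted p = 0.223). Clec10a and Itgam had lower means in KO but overlapped, and Esam had a higher one (difference 0.18). On WT 1, Sirpa read 11.13, above every KO array, but Itgam read 7.31, below every KO array. The mean of 12 melanocyte lineage genes was 7.26 to 8.08 on the KO arrays, against 11.60, 11.96 and 9.11 on WT 1 to 3; all 12 had a lower mean in KO. Those 12 genes all lay above the median of the negative control probe sets on every WT array, and 8 to 12 of them did on the KO arrays. In sorted bulk cells, fewer cells of a type and less RNA per cell cannot be told apart. The main results are therefore given by array and, where they rest on WT 1 and WT 2, without them.

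Most respiratory genes had a lower mean in KO than in WT, but by small amounts and without any passing correction. Of the 110 members, 85 had a lower mean in KO and 25 a higher one (77.3% lower, against 40.1% of all genes). The median difference, KO minus WT, was -0.17 log2 over the members and 0.06 over all genes. In limma, 0 members had an adjusted p under 0.05, as did 0 of 19505 genes (0.0%), and the smallest adjusted p among members was 0.223. At an unadjusted p under 0.05 stood 29 members (26.4%, against 19.6% of all genes): 26 were lower in KO (10.6% of all genes were) and 3 were higher (8.98% of all genes). The 4 KO values lay below all 3 WT values in 11 members, which is 10.0% of members against 5.92% of all genes, and above them in 2, which is 1.82% against 7.85%.

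The values by array show where the groups differed. Relative to each member's KO mean, the median member stood at -0.04, 0.12, 0.04 and -0.10 on KO 1 to 4, against 0.17, 0.31 and 0.03 on WT 1 to 3. WT 3 thus fell among the KO arrays, below KO 2 and KO 3. It lay inside the range of the 4 KO arrays in 80 of 110 members (72.7%, against 57.7% of all genes), whereas WT 1 did so in 31 (28.2%, against 38.1% of all genes) and WT 2 in 25 (22.7%, against 29.9%). WT 1 lay above every KO array in 60 members (54.5%, against 28.3% of all genes) and WT 2 in 72 (65.5%, against 28.1%). Without WT 1 and WT 2 the median difference was -0.03 over the members and 0.02 over all genes. In that setting 65 members (59.1%) had a lower mean in KO, against 44.7% of all genes. Without WT 3, the 2 arrays with high melanocyte markers are left as WT. There 37 members passed the adjusted threshold in limma (25.3% of all genes did). Of these, 33 were lower in KO (13.8% of all genes were) and 4 higher (11.4% of all genes). With arrays weighted by their fit, 35 members passed (22.9% of all genes). What part the melanocyte, cDC2, monocyte and macrophage markers have in these differences was not tested.

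**Figure D1:**
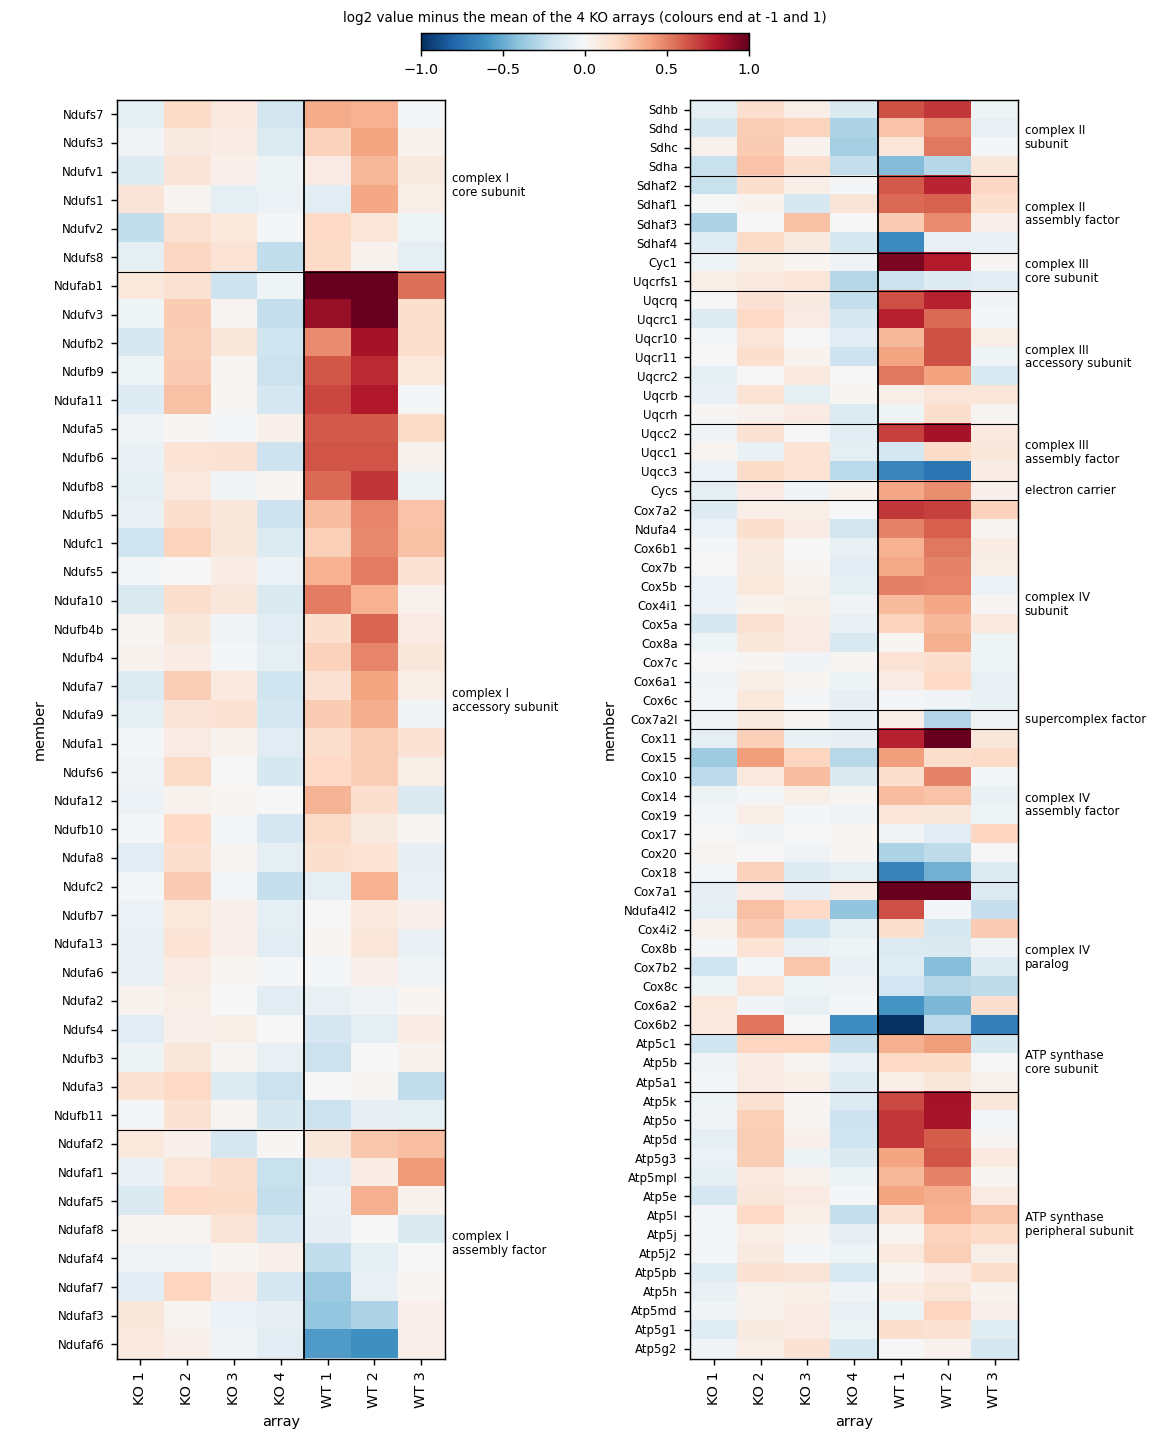
Each of the 110 members (rows, grouped by complex and role, within a group by KO minus WT) on the 4 KO and 3 WT arrays (columns); colour is the log2 value minus that member's mean over the KO arrays. Most rows are red on WT 1 and WT 2, while WT 3 resembles the KO arrays.

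The median level of the respiratory genes also ordered the KO arrays among themselves. KO 2 had the highest value of the 4 KO arrays in 81 members (73.6%, against 30.6% of all genes) and KO 4 the lowest in 69 (62.7%, against 31.7%). Both KO 2 and KO 3 lay above both KO 1 and KO 4 in 78 members (70.9%, against 24.0% of all genes). Probe sets named as negative controls moved the opposite way. Their medians were 6.88, 6.49, 6.67 and 6.88 on KO 1 to 4, against 6.19, 6.26 and 6.71 on WT 1 to 3. The 2 arrays with the lowest control medians, WT 1 and WT 2, had the highest respiratory gene medians, and KO 1 and KO 4 had the highest control medians and the lowest respiratory gene medians. The part of the control level in the group difference was not tested.

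**Figure D2:**
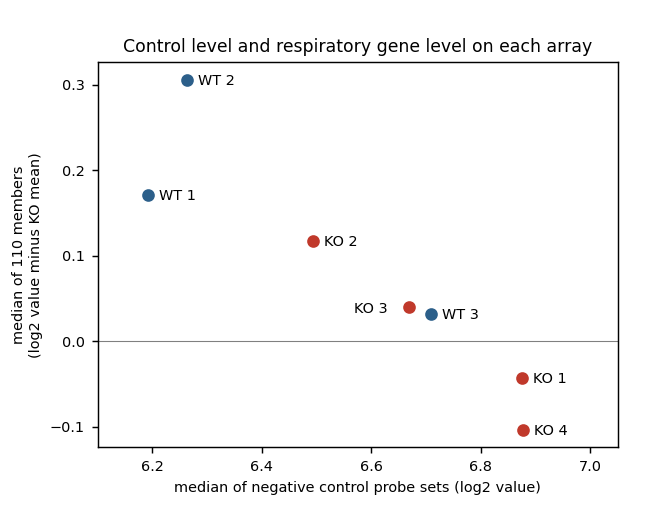
Median of the negative control probe sets (x axis, log2 value) and median over the 110 members of the log2 value minus the KO mean (y axis) on each array, KO in red and WT in blue. The arrays run from KO 4 at 6.88 and -0.10 to WT 2 at 6.26 and 0.31, with WT 3 next to KO 3.

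Promoter sequences are shown for 5 members, all with a lower mean in KO: Ndufab1, Ndufa5, Cox7a1, the assembly factor gene Uqcc2, and Cox6a1, which differed by only -0.07. No member with a higher mean in KO is among them. NRF1 and GABP, an ETS factor, are known regulators of respiratory genes, and their motifs were searched on both strands of the 250 bases before the start site (GCGCA and GCGC separated by any base for NRF1, CCGGAAG for ETS factors, with overlaps counted separately). The windows are from RefSeq, build GRCm38.p6, and 91 of the 110 members had one. Of these, 15 held the NRF1 motif (16.5%, against 6.19% of 15691 genes on the array with a window) and 18 the ETS motif (19.8%, against 10.5%); 3 held both. Members with and without the NRF1 motif had similar median differences of -0.20 and -0.18, and those with and without the ETS motif -0.22 and -0.18. In the sequences below, written 5′ to 3′ on the gene's strand, capitals mark motif matches. Ndufab1 lies on the minus strand (chr7:122101849-122102098), as do Ndufa5 (chr6:24527691-24527940), Uqcc2 (chr17:27133892-27134141) and Cox6a1 (chr5:115348959-115349208), and Cox7a1 lies on the plus strand (chr7:30183921-30184170).
Ndufab1: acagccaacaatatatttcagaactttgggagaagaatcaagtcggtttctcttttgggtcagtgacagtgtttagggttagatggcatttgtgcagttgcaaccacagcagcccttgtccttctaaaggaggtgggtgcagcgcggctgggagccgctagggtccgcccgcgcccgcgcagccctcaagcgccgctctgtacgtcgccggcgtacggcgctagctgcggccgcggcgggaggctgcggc
Ndufa5: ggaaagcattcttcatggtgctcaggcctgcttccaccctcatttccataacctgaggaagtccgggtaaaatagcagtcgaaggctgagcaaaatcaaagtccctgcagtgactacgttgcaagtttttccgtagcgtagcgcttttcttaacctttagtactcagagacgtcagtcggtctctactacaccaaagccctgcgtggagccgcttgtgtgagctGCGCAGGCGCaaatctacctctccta
Uqcc2: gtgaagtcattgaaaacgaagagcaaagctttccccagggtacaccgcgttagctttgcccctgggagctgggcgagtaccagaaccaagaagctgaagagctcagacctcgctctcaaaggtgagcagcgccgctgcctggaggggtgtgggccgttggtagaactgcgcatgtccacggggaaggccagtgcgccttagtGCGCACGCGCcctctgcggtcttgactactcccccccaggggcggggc
Cox6a1: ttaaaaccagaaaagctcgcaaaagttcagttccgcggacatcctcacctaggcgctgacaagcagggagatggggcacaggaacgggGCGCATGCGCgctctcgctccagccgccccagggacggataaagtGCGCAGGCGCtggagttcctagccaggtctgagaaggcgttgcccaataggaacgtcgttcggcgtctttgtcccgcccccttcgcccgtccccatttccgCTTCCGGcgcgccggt
Cox7a1: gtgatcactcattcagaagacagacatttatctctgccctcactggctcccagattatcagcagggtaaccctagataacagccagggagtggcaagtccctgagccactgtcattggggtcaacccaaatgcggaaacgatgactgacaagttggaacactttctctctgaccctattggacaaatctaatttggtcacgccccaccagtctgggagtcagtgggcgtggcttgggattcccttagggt
The NRF1 letters were found once each in Ndufa5 and Uqcc2, and at 2 places in Cox6a1, which also held the ETS letters in the reverse direction. Neither motif was found in the windows of Ndufab1 and Cox7a1. A match is a run of letters and not a measured binding site.

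Complex I takes electrons from NADH through a flavin and a chain of iron-sulfur clusters held by its core subunits. All 6 measured nuclear core subunits had a lower mean in KO, by 0.04 to 0.24, and all 6 overlapped between the groups, with WT 3 inside the KO range for each. Ndufs7, which holds the last cluster before ubiquinone, read 8.93, 9.20, 9.12 and 8.84 on KO 1 to 4, against 9.40, 9.37 and 9.01 on WT 1 to 3. Ndufs1, an iron-sulfur subunit of the NADH-oxidising module, read 8.36, 8.26, 8.14 and 8.17 on the KO arrays, against 8.13, 8.62 and 8.30 on the WT arrays. WT 1 was thus the lowest of the 7 arrays for Ndufs1 and the highest for Ndufs7. Ndufv1, which binds the flavin, averaged 10.77 ± 0.11 (SD, n = 4) in KO and 10.94 ± 0.14 (SD, n = 3) in WT. Its partner Ndufv2 differed by -0.09, and Ndufs3 and Ndufs8, of the arm that leads to ubiquinone, by -0.22 and -0.04.

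Accessory subunits of complex I surround the core and are needed to build or steady it. Of 30, 24 had a lower mean in KO (40.1% of all genes did), and 7 had all KO values below all WT values (5.92% of all genes did). Ndufab1, the mitochondrial acyl carrier protein, had the smallest p of all members. It read 9.54, 9.58, 9.22 and 9.39 on KO 1 to 4, against 10.59, 10.50 and 9.98 on WT 1 to 3. All WT arrays lay above all KO arrays, and WT 3 lay 0.55 above the KO mean. The KO values were not clear of the negative control probe sets, whose upper tail began at 9.73 to 10.19 on the KO arrays. The difference was -0.92 (SE 0.17; limma, adjusted p = 0.223), or 0.527 times the WT level. Without WT 3 it was -1.11 (limma, adjusted p = 0.00042), and over all 16 alternatives the adjusted p ranged from 0.00042 to 0.832.

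Ndufa5, a subunit of the arm that leads to ubiquinone, read 12.19, 12.23, 12.20 and 12.27 on the KO arrays, against 12.83, 12.83 and 12.41 on the WT arrays. The KO values spread over less than 0.1, and all WT values lay above them. Ndufs5, a small subunit on the intermembrane side, averaged 11.50 ± 0.06 (SD, n = 4) in KO and 11.83 ± 0.18 (SD, n = 3) in WT, again without overlap. The other 4 without overlap, named after their values were seen, were Ndufa1, Ndufb4, Ndufb5 and Ndufc1, with differences of -0.19, -0.28, -0.36 and -0.34. For all 7, WT 3 was above every KO array but below the WT mean. Ndufv3, a small subunit beside the flavin, differed by -0.76 but overlapped: it read 9.96, 10.25, 10.03 and 9.76 on the KO arrays, against 10.87, 11.25 and 10.16 on the WT arrays. Ndufa2 and Ndufa6 were among the 5 members with the smallest range over the 7 arrays, 0.17 and 0.16, and their group means differed by 0.03 and 0.00.

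Complex II, succinate dehydrogenase, is encoded in the nucleus throughout. Sdhb, its iron-sulfur subunit, read 11.53, 11.78, 11.68 and 11.47 on KO 1 to 4, against 12.26, 12.32 and 11.58 on WT 1 to 3. Only WT 3 fell among the KO arrays, and both other WT arrays were higher. Sdha, the flavoprotein that oxidises succinate, ran the other way, at 10.14, 10.64, 10.54 and 10.13 on the KO arrays, against 9.93, 10.08 and 10.47 on the WT arrays. The 2 catalytic subunits therefore had differences of opposite sign, -0.44 for Sdhb and 0.20 for Sdha, and neither passed (limma, adjusted p = 0.259 and 0.5295). The membrane anchors Sdhc and Sdhd differed by -0.21 and -0.23, and both groups overlapped.

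Complex III passes electrons from ubiquinol to cytochrome c through the Rieske iron-sulfur protein, encoded by Uqcrfs1, and cytochrome c1, encoded by Cyc1. Cyc1 read 11.95, 12.04, 12.005 and 11.95 on KO 1 to 4, against 12.93, 12.78 and 11.99 on WT 1 to 3. WT 3 lay within the narrow KO range, and WT 1 and WT 2 lay 0.94 and 0.79 above the KO mean. The difference of -0.58 (SE 0.21; limma, adjusted p = 0.224) was -0.86 without WT 3 (limma, adjusted p = 0.000553) and -0.01 without WT 1 and WT 2; over all 16 alternatives the adjusted p ranged from 0.000553 to 0.997. Uqcrfs1 read 11.15, 11.18, 11.20 and 10.80 on the KO arrays, against 10.87, 10.96 and 10.97 on the WT arrays, a difference of 0.15. All 7 other subunits had a lower mean in KO, by 0.05 to 0.46. Uqcrq, a small subunit, read 12.59, 12.73, 12.67 and 12.35 on the KO arrays, against 13.23, 13.35 and 12.56 on the WT arrays. Uqcrc1, a large matrix-facing subunit, and Uqcr10, a small one, differed by -0.44 and -0.34. Cycs, the somatic cytochrome c, averaged 12.38 ± 0.07 (SD, n = 4) in KO and 12.68 ± 0.22 (SD, n = 3) in WT; its WT values were 12.77, 12.84 and 12.44, and WT 3 lay inside the KO range.

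The catalytic core of complex IV is made in mitochondria, and the nuclear subunits surround it. Of the 11 common nuclear subunits, 10 had a lower mean in KO (median -0.24). Cox7a2 read 12.27, 12.46, 12.46 and 12.40 on KO 1 to 4, against 13.10, 13.08 and 12.63 on WT 1 to 3, with no overlap. Its difference was -0.54 (SE 0.14; limma, adjusted p = 0.223), and -0.23 without WT 1 and WT 2. Ndufa4, first counted with complex I and now placed in complex IV, differed by -0.37, Cox6b1, on the side that docks cytochrome c, by -0.32, and Cox7b by -0.31. For these 3 genes WT 3 lay inside the KO range. Cox6c, at 13.06, 13.18, 13.07 and 12.99 on the KO arrays, against 13.06, 13.05 and 13.01 on the WT arrays, hardly varied and overlapped fully. Cox7a2l, counted here as a supercomplex factor and not as a subunit, differed by 0.09.

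**Figure D3:**
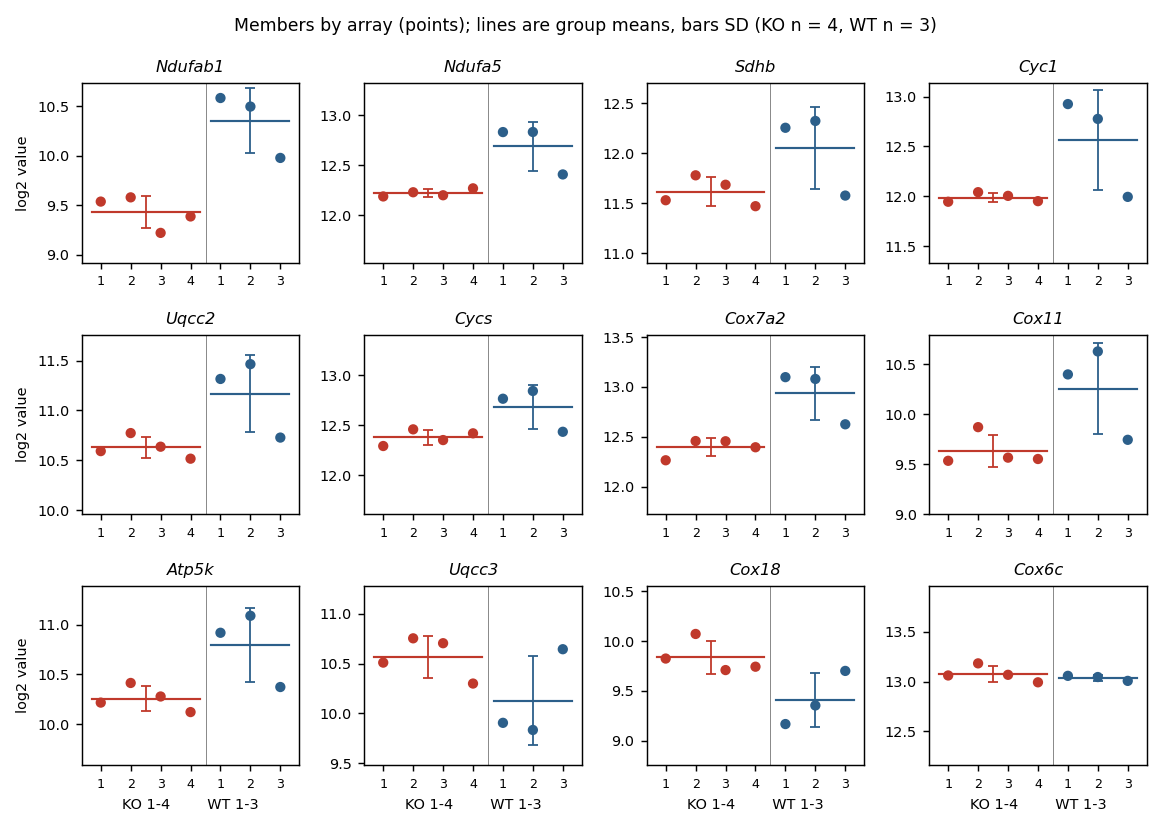
Log2 values of 12 members by array, KO 1 to 4 in red and WT 1 to 3 in blue, each panel on its own scale; lines are group means and bars 1 SD. Ndufab1, Ndufa5 and Cox7a2 have WT 3 above every KO array, whereas Cyc1, Sdhb and Uqcc2 have it among the KO arrays; Uqcc3 is lowest on WT 1 and WT 2, and Cox6c is flat.

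Complex IV has paralogous subunits made in particular tissues or on induction, and of 8 such genes 5 had a higher mean in KO and 3 a lower one (median 0.16). Cox7a1, the heart and skeletal muscle form, read 8.56, 8.73, 8.57 and 8.73 on KO 1 to 4, against 10.21, 10.14 and 8.51 on WT 1 to 3. Only WT 1 and WT 2 were high, and WT 3 was the lowest of the 7 arrays. The difference of -0.97 (SE 0.38; limma, adjusted p = 0.238) was the largest of the 110 members. It was -1.53 without WT 3 (limma, adjusted p = 2.96e-05) and 0.14 without WT 1 and WT 2; over all 16 alternatives the adjusted p ranged from 2.96e-05 to 0.926. Its counterpart Cox7a2 was also highest on WT 1 and WT 2, by 0.70 and 0.69 over the KO mean against 1.56 and 1.49 for Cox7a1.

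Cox6a2, the muscle form of subunit 6a, was lower on WT 1 and WT 2 (8.97 and 9.12) than on WT 3 (9.73) and on the KO arrays (9.50 to 9.68), while the common Cox6a1 differed by -0.07. Cox6b2, known from testis, read 9.26, 9.70, 9.16 and 8.54 on KO 1 to 4, against 7.73, 8.90 and 8.48 on WT 1 to 3. Its range of 1.97 was the widest of all members, and both groups spread widely. Cox8c, also known from testis, was higher in KO without overlap, at 8.20, 8.36, 8.20 and 8.21 on KO 1 to 4, against 8.05, 7.96 and 7.99 on WT 1 to 3 (difference 0.24; limma, adjusted p = 0.229). The hypoxia-induced Ndufa4l2 and Cox4i2 differed by -0.13 and -0.08. Ndufa4l2 was highest on WT 1, at 7.65, but read 6.99 on WT 2, inside the KO range of 6.61 to 7.30. Cox7b2 lay below the median of the negative controls on 5 of 7 arrays, Cox8b, a muscle form of rodents, on 2 and Ndufa4l2 on 1, so their values are near background. The upper tail of the negative controls, taken at a high percentile, began at 9.37 to 10.19 over the arrays. Cox8c, Cox4i2, Cox6a2 and Cox6b2 lay below that level on every array, and Cox7a1 on all but WT 1 and WT 2. These values were therefore not clear of the controls either. Such low values were not limited to the paralogs. Ndufs1, Opa1 and the assembly gene Atpaf2 also lay below that level on every array, and Ndufab1 and Atp5c1 on every KO array. These are examples and not a full list. Cox7b2 differed by 0.22 and Cox8b by 0.11. Of the common counterparts not yet given, Cox4i1 differed by -0.24 and Cox8a by -0.11.

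**Figure D4:**
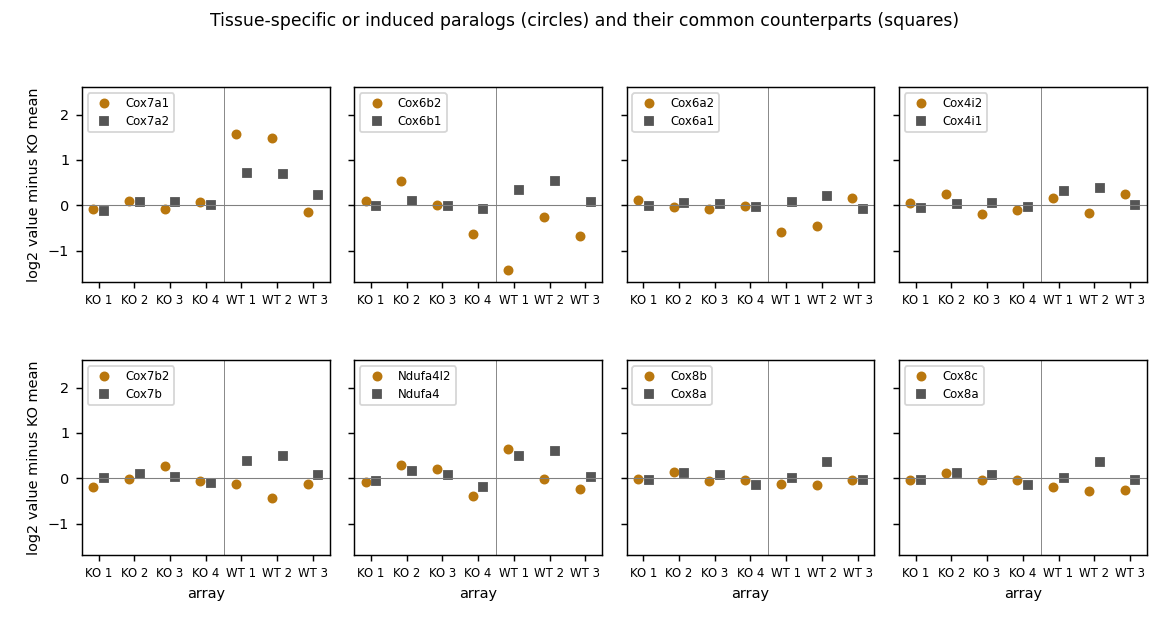
Tissue-specific or induced complex IV genes (circles) and their common counterparts (squares) on each array, as the log2 value minus the gene's mean over the 4 KO arrays. Cox7a1 stands 1.56 and 1.49 up on WT 1 and WT 2 only, while Cox6a2 and Cox6b2 lie below 0 there; the 7 counterparts plotted lie above 0 on both of these arrays.

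ATP synthase has a catalytic F1 head of alpha, beta and gamma subunits and a membrane part that rotates. Of its 17 genes, 16 had a lower mean in KO (median -0.15), and in all 17 the groups overlapped. Among the F1 subunits, Atp5a1 (alpha) averaged 12.61 ± 0.10 (SD, n = 4) in KO and 12.68 ± 0.04 (SD, n = 3) in WT, and Atp5b (beta) 13.07 ± 0.06 and 13.21 ± 0.11. Atp5c1 (gamma) read 9.19, 9.60, 9.60 and 9.16 on KO 1 to 4, against 9.74, 9.80 and 9.23 on WT 1 to 3. Its KO arrays thus split into KO 2 and KO 3, and KO 1 and KO 4, with WT 3 beside the lower pair. Its difference was -0.20 (limma, adjusted p = 0.5335), and -0.39 without WT 3. The 4 subunits with the smallest p were all among the 14 other than alpha, beta and gamma. Atp5k, subunit e of the dimer interface, read 10.22, 10.41, 10.28 and 10.12 on the KO arrays, against 10.92, 11.09 and 10.37 on the WT arrays (difference -0.53; limma, adjusted p = 0.223). Atp5o, which links the stalk to the head, differed by -0.50, Atp5d, of the central stalk, by -0.44, and Atp5g3, a gene of the c ring, by -0.37. For these 4 genes WT 3 lay inside the KO range. Atp5h, of the peripheral stalk, ranged over 0.20 on the 7 arrays.

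**Figure D5:**
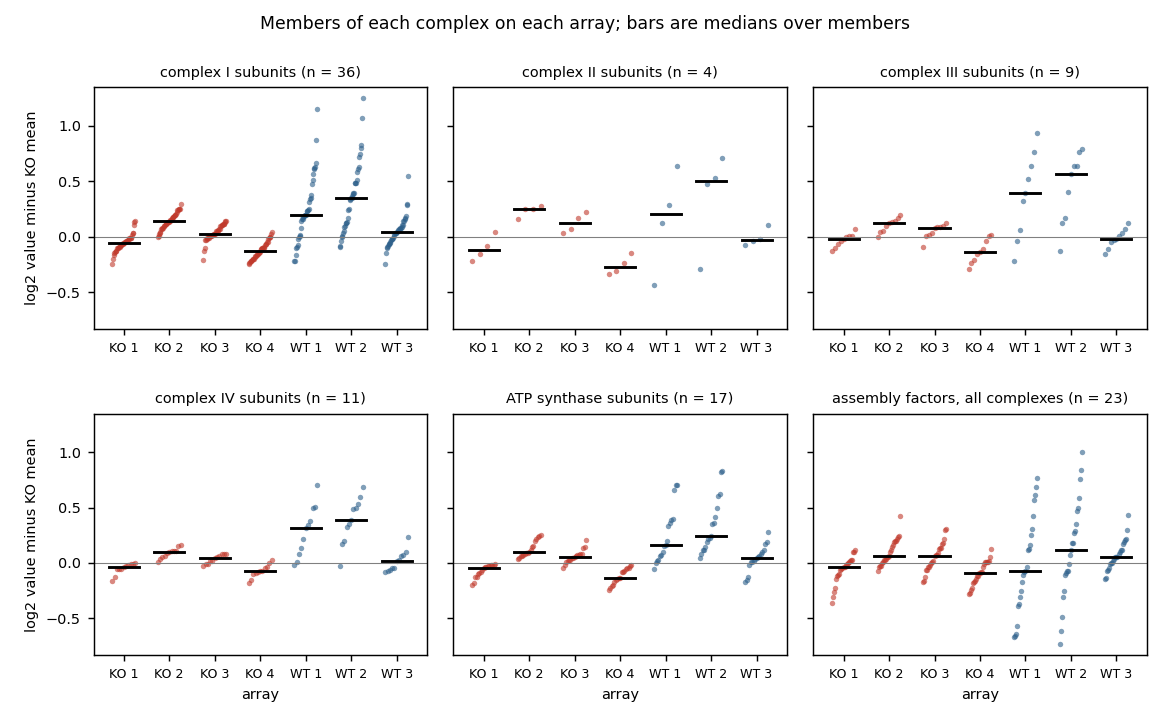
Log2 value minus the gene's KO mean for the subunits of each complex and for the assembly factors, on KO (red) and WT (blue) arrays; each point is 1 gene and black bars are medians over genes. Subunit medians on WT 1 and WT 2 lie at 0.16 to 0.57, those on WT 3 within 0.05 of 0, and assembly factors spread to both sides on WT 1 and WT 2.

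Assembly factors, which insert cofactors and join subunits but do not stay in the finished complex, were more mixed than subunits. Of 77 subunits, 67 had a lower mean in KO (median -0.21), and of 23 assembly factors 14 did (median -0.06); the difference between these sets was not tested. Lower in KO without overlap were 3 of the 23 assembly factors (5.92% of all genes were). They were Sdhaf1, which guards iron-sulfur insertion into SDHB, Sdhaf2, which adds the flavin to SDHA, and Ndufaf2, a late chaperone of complex I. Sdhaf2 read 8.98, 9.37, 9.28 and 9.20 on KO 1 to 4, against 9.82, 9.97 and 9.41 on WT 1 to 3, and Sdhaf1 averaged 9.84 ± 0.12 (SD, n = 4) in KO and 10.29 ± 0.24 (SD, n = 3) in WT. Ndufaf2 was highest on WT 3: it read 10.16, 10.11, 9.89 and 10.07 on the KO arrays, against 10.18, 10.33 and 10.36 on the WT arrays.

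Cox11, which delivers copper to the complex IV core, and Uqcc2, which serves cytochrome b synthesis, were high on WT 1 and WT 2 only. Cox11 read 9.53, 9.87, 9.56 and 9.55 on the KO arrays, against 10.40, 10.63 and 9.74 on the WT arrays, and Uqcc2 differed by -0.54. Other factors ran the opposite way. Uqcc3, which also serves cytochrome b, read 10.51, 10.75, 10.70 and 10.30 on KO 1 to 4, against 9.91, 9.83 and 10.64 on WT 1 to 3, so that it was low on the same arrays on which Uqcc2 was high. Cox18, which inserts a core subunit of complex IV into the membrane, read 9.82, 10.07, 9.71 and 9.74 on the KO arrays, against 9.17, 9.35 and 9.70 on the WT arrays. These groups did not overlap, but WT 3 lay only 0.01 below the lowest KO array. Ndufaf6, a factor of complex I, averaged 10.08 ± 0.10 (SD, n = 4) in KO and 9.70 ± 0.37 (SD, n = 3) in WT. Cox19 had a range of 0.17 on the 7 arrays.

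Of 37 further assembly and pathway genes outside the naming rule, 32 were measured. In limma 0 passed the adjusted threshold. A lower mean in KO was found in 20 (40.1% of all genes had one) and a higher mean in 12. At an unadjusted p under 0.05 in limma, 7 were lower (10.6% of all genes were) and 0 higher (8.98% of all genes). KO lay below WT without overlap in 4 of the 32 genes (5.92% of all genes did). These were also the 4 with the smallest p. Pet100, needed to build complex IV, read 10.10, 10.18, 10.00 and 10.11 on the KO arrays, against 10.64, 10.59 and 10.36 on the WT arrays. Atpaf2, which helps assemble the F1 head, read 7.82, 7.98, 7.82 and 8.02 on the KO arrays, against 8.96, 8.47 and 8.29 on the WT arrays. Tmem126a, an assembly factor of complex I, differed by -0.34 and was highest on WT 3, while Higd1a, a hypoxia-induced partner of complex IV, differed by -0.86 and was highest on WT 2. Among regulators of respiratory genes, the coactivator Ppargc1a read 7.19 to 7.37 on the KO arrays, against 11.71, 12.02 and 7.97 on WT 1 to 3. The transcription factor Nrf1 differed by -0.21, Gabpa by 0.07 and Tfam, which maintains mitochondrial DNA, by 0.13.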

How the data were processed

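RNA of sorted splenic cDC1 was measured on 4 KO and 3 WT whole-transcript arrays. The deposited table holds log2 values, which the authors made, per the submitters' processing notes, in Affymetrix Expression Console 1.1 using RMA; which arrays were normalized together and the genome build are not given in the sources used here. Summarised values of this kind compress dim signals, and precision is limited by the number of arrays.

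Of 22206 transcript probe sets, 19572 had 1 gene symbol in the platform annotation; for symbols with several, the probe set with the highest mean was kept, leaving 19505 genes. No low-value filter was applied, so all 110 members were tested. KO was compared with WT in limma 3.58.1 (R 4.3.3; lmFit and eBayes without covariates); p-values of all genes were adjusted together by Benjamini-Hochberg, with calls at 0.05. The code was tested on simulated data. Same-numbered arrays did not deviate together from their group means (r = -0.038, 0.046 and -0.017 across genes). This cannot exclude pairing, because WT 1 and WT 2 stood apart from the other arrays and that split enters every WT deviation. No pairing was used in the main fit. Named genes were core subunits, cytochrome c, paralogs and counterparts, the 4 subunits per complex and 8 assembly factors of smallest unadjusted p, the 5 largest differences in each direction and the 5 smallest ranges. The members and lists were chosen with earlier results of these data known. Alternatives left out each array or WT 1 and WT 2 together, or changed the scaling, filter, variance model, threshold, probe sets or test.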

Additional observations from a re-analysis of the deposited data

Results flagged for a closer look

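In 3 of 63 sets of 4 KO values tested (named members, Opa1 and the medians of the complexes), 1 array stood apart, its gap to the nearest other array being above Dixon's critical share of the range for 4 values. Chance gives about 1 such set in 20. For Cox11 the gap was 0.907 of the range, with KO 2 at 9.87 and the other KO arrays at 9.53 to 9.56. For Cox8c it was 0.924, with KO 2 at 8.36 and the others at 8.20 to 8.21. For Uqcrfs1 it was 0.875, with KO 4 at 10.80 and the others at 11.15 to 11.20. KO 2 was the array with the lowest negative control median of the KO group and KO 4 the one with the highest.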

How the results depend on the processing

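Counts of members depended on which WT arrays entered. The count past the adjusted threshold in limma, 0 with all arrays, was 0 in 15 of 17 alternatives, 37 without WT 3 (0 to 37 over leaving out each array) and 35 with array weights, which gave WT 3 the lowest weight of 0.241. The count at an unadjusted p under 0.05 was 29 with all arrays (26.4% of members, against 19.6% of all genes). It ranged over 6 to 52 on leaving out each array. The count was 6 without WT 2, 10 without WT 1, 13 without KO 1 and 15 without KO 4. It was 17 without KO 3 and 52 without WT 3 (47.3% of members, against 36.9% of all genes). With array weights it was 50 (45.5% of members, against 36.1% of all genes), and with the ordinary test per gene 19. Shares over all genes are not given for the other alternatives of this count. With the replicate number as a block the count was 13, although no pairing by number was seen and KO 4 had no partner. The count past the adjusted threshold stayed 0 with this block. The count without overlap, 13 with all arrays, was 14 to 68 on leaving out each array (33 without KO 2, 68 without WT 3). It was 30 without WT 1 and WT 2. Fewer arrays make overlap less likely by construction, and the share of all genes without KO 2 is not given here. Without WT 3, KO lay below WT in 51.8% of members (20.6% of all genes) and above it in 10.0% (25.4%). Without WT 1 and WT 2, KO lay below in 17.3% of members (18.1% of all genes) and above in 10.0% (24.2%). The median difference was -0.22 to -0.11 on leaving out each array and -0.0322 without WT 1 and WT 2. Opa1 was lower in KO but not called in the 15 alternatives that gave it a value, which leave out the dim filter and the threshold on the size of the difference, by -1.50 to -0.996 on leaving out each array. Among the 55 named members, 20 changed direction without WT 1 and WT 2. There the single WT array was assumed to vary like KO. A filter on dim probe sets kept 104 of 110 members.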

Other observations

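A set of 9 transcript probe sets has identifiers that carry M in place of a chromosome number, and the annotation gives them no gene. All 9 had a lower mean in KO, by 0.10 to 0.62 log2 (median -0.32), and 3 had no overlap between the groups. Of all named genes, 40.1% had a lower mean in KO and 5.92% lay below WT without overlap. Relative to the KO mean their median stood at 0.00, 0.01, -0.16 and 0.17 on KO 1 to 4, against -0.04, 0.38 and 0.50 on WT 1 to 3. Their order over the arrays differed from that of the nuclear respiratory genes: WT 3 lay above every KO array in 9 of 9, and KO 4 was the highest KO array by median. These probe sets entered no test.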
